A study of Mus musculus with 8 samples.

Results

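The blood endothelial genes described here are 10 genes whose products are characteristic of the cells that line blood vessels: Tek, Tie1, Kdr, Eng, Cdh5, Pecam1, Esam, Emcn, Plvap and Egfl7. Every probe set whose single gene symbol in the platform annotation was one of these names was taken, which gave 15 probe sets of the 45037 on the array once control probe sets were left out. All 10 genes were found among the 18193 genes with a probe set of their own. RNA was measured on 8 Affymetrix expression arrays of mouse spleen and lymph node, in a study of cells that express Aire outside the thymus. Aire is the autoimmune regulator, a protein best known for driving the display of tissue antigens by thymic epithelium. There were 2 arrays each of Aire-knockout spleen, Aire-wild-type spleen, Aire-knockout lymph node and Aire-wild-type lymph node, lettered A and B within a group. No other allele, treatment, strain, age, sex, cell type or sorting step is given in the labels, and they do not say how many mice each array holds or whether A and B are separate mice. Spleen and lymph node therefore mean samples from these organs, which need not be whole tissue, and each p-value reflects only how much these samples differed from one another, part of which may be technical.

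Endothelial cells form the inner wall of all blood vessels. Their survival and sprouting depend on the receptor tyrosine kinases that bind VEGF and the angiopoietins, and their barrier depends on adhesion molecules at the contacts between neighbouring cells. In spleen the blood passes through sinusoids, and in lymph nodes lymphocytes enter from the blood across high endothelial venules. Several of these genes are not limited to endothelium: Pecam1 is also found on platelets and many leukocytes, Eng on activated macrophages, and Esam on platelets and on a subset of mouse splenic dendritic cells.

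A signal is the deposited intensity of a probe set after each array was brought to the same median, in arbitrary units. A floor was set at 9.58, under which 20% of the values lay, and lower signals were raised to it in the tests. A gene was tested only if its signal was above the median of all values, 59.0, on at least 2 arrays, and 11575 genes met this. Signals of different probe sets depend on their oligonucleotides, so each gene is compared only with itself across arrays. A low signal is not 0: the Y-linked gene Eif2s3y, which female cells lack, gave 21.2 in wild-type spleen A and 3.80 in wild-type lymph node A, against 521 to 1988 on the other 6 arrays.

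Of the 10 genes, 6 were past the filter: Tek, Kdr, Eng, Pecam1, Esam and Egfl7. The other 4, Tie1, Cdh5, Emcn and Plvap, were above 59.0 on no array and were not tested. Kdr, Esam and Egfl7 were above that level on all 8 arrays, Eng on 4, Tek on 3 and Pecam1 on 2. Of the 15 probe sets, 8 passed.

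**Figure D1:**
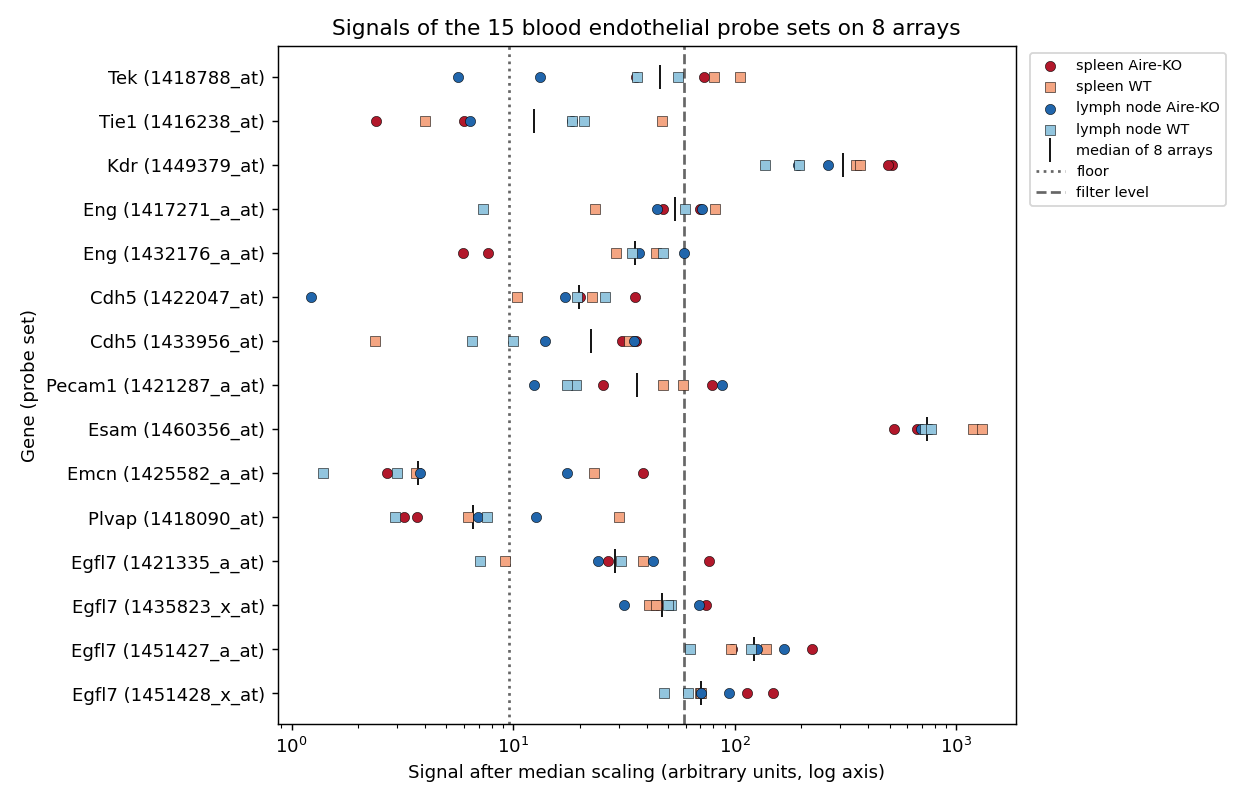
Signal of each of the 15 probe sets (rows, grouped by role from receptors at the top to the secreted Egfl7 at the bottom) on the 8 arrays (points), on a log axis in arbitrary units after median scaling; circles are Aire-knockout and squares wild-type arrays. The points of Kdr, Esam and the third Egfl7 row all lie right of the dashed filter level of 59.0, and those of Tie1, Cdh5, Emcn and Plvap all lie left of it.

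The sequences before the start sites of Tie1 and Egfl7 are shown because these genes stand on opposite sides of that filter, and because ETS transcription factors, whose binding core is GGAA, are known regulators of endothelial genes. Promoter windows from RefSeq (build GRCm38.p6) were held for 6 of the 10 genes, Tek, Tie1, Kdr, Eng, Emcn and Egfl7, in 8 windows. The 250 bases before the start are printed 5′ to 3′ on the strand of the gene, with each GGAA, or TTCC for the opposite strand, in capitals. The Tie1 window lies at chr4:118489850-118490099 on the minus strand, and the window of the first Egfl7 start at chr2:26580833-26581082 on the plus strand.
Tie1: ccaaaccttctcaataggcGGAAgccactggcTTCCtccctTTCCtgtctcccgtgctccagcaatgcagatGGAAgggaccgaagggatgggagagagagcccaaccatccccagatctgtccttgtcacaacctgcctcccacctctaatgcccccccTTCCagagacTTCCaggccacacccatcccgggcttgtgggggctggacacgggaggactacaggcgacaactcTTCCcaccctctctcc
Egfl7: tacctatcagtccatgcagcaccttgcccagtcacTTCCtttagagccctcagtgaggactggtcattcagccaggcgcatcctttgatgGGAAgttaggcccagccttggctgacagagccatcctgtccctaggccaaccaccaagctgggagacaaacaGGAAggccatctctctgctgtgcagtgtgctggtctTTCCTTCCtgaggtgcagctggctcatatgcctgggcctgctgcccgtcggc
The Tie1 window held 7 matches to GGAA on either strand and the printed Egfl7 window 5. Egfl7 has 2 further windows at later starts, with 3 and 1. All 8 windows of the 6 genes held at least 1, but so did 93.45% of the 32851 mouse windows of this length. The longer core CAGGAA, which contains the first, was in 5 of the 8 windows, against 25.71% of all windows. These matches describe letters only and are not binding sites.

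Egfl7 also hosts the endothelial microRNA miR-126 in one of its introns, and the mature strand is shown because it is made from the same transcript. The mature mmu-miR-126a-3p, from Mir126a at chr2:26591402-26591423 on the plus strand (RefSeq, GRCm38.p6), is given with its seed, bases 2 to 8, in capitals.
mmu-miR-126a-3p: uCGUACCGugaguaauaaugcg
The microRNA itself is not analysed here.

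Among the receptors only Kdr was above the filter level on every array. Kdr, the main signalling receptor for VEGF-A on endothelium, had signals of 514 and 494 in knockout spleen A and B and of 352 and 367 in wild-type spleen. In lymph node it had 194 and 263 in knockout and 136.5 and 195 in wild-type samples. All 4 spleen arrays were above all 4 lymph node arrays, and within spleen both knockout arrays were above both wild-type arrays. Within lymph node the genotypes overlapped by a small margin.

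Tek encodes the receptor of the angiopoietins. It had signals of 72.6 and 35.7 in knockout spleen and 80.6 and 105.7 in wild-type spleen. In lymph node it had 5.66 and 13.2 in knockout samples, against 36.1 and 55.8 in wild-type samples. Within each tissue both knockout arrays were under both wild-type arrays, and knockout lymph node A was under the floor. The 3 arrays above the filter level were all of spleen, so the gene entered the tests through the tissue where it was higher.

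Tie1, the partner receptor of Tek that binds no angiopoietin on its own, had 5.97 and 2.40 in knockout spleen and 4.0 and 47.0 in wild-type spleen. In lymph node both genotypes lay between 6.37 and 20.9. Its 4 lowest arrays were under the floor, so no order of the groups can be read.

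Eng encodes endoglin, a co-receptor for TGF-beta family ligands. Its probe set of higher mean, which represents the gene in the tests, had 69.8 and 47.5 in knockout spleen, 81.4 and 23.4 in wild-type spleen, 71.4 and 44.5 in knockout lymph node, and 59.8 and 7.30 in wild-type lymph node. In every group array A was above array B, the groups overlapped in both tissues, and wild-type lymph node B was under the floor. The other Eng probe set ran differently, with 5.93 and 7.71 in knockout spleen against 29.0 to 58.9 on the other 6 arrays. Over the 8 arrays the pair had a Pearson r of -0.41, so they did not track each other.

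Of the junction and adhesion genes only Esam was above the filter level on every array. Esam, a tight junction adhesion molecule, had signals of 523 and 666 in knockout spleen, against 1195 and 1308 in wild-type spleen. In lymph node it had 759 and 690 in knockout and 722 and 772 in wild-type samples. The wild-type spleen arrays were above the other 6, and the lymph node genotypes overlapped.

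Pecam1, known as CD31 and found at endothelial cell contacts, had 79.2 and 25.5 in knockout spleen and 58.5 and 47.2 in wild-type spleen. It had 88.0 and 12.4 in knockout lymph node and 19.1 and 17.5 in wild-type lymph node. The knockout A arrays of both tissues were the 2 highest and the only ones above the filter level, so Pecam1 entered the tests through them, whereas both knockout B arrays were among the 4 lowest.

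Cdh5 encodes VE-cadherin, the adhesion molecule that defines endothelial adherens junctions. Neither of its 2 probe sets exceeded 36.0 on any array, and the lowest signals were 1.23 and 2.38. With one of them knockout spleen gave 36.0 and 30.9, against 33.3 and 2.38 in wild-type spleen. With the other it gave 20.1 and 35.3 in knockout, against 22.7 and 10.5 in wild-type spleen. In lymph node the first gave 34.97 and 13.86 in knockout against 6.54 and 10.02 in wild-type samples, and the other 17.1 and 1.23 in knockout against 25.9 and 19.4 in wild-type samples. There the genotypes did not overlap with either probe set, but the order was opposite, and both were under the filter level throughout.

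The surface and secreted products were mixed. Emcn, a sialomucin of venous and capillary endothelium, was under the floor on 5 arrays and reached 38.4 in knockout spleen B. Plvap, which forms the diaphragms of endothelial fenestrae, was under the floor on 6 arrays and reached 30.0 in wild-type spleen B. Neither gene showed 2 arrays of a group that were both clear of the floor.

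Egfl7, a secreted protein of endothelium, had signals of 97.1 and 224 in knockout spleen and 138 and 96.4 in wild-type spleen with the probe set that represents it. In lymph node it had 166.5 and 126 in knockout, against 119 and 63.1 in wild-type samples. The spleen groups overlapped, and in lymph node both knockout arrays were above both wild-type arrays. A second probe set had 113 and 149 in knockout spleen, 69.6 and 70.3 in wild-type spleen, 93.9 and 70.7 in knockout lymph node and 48.0 and 61.8 in wild-type lymph node. With it both tissues had the knockout arrays above the wild-type arrays. The other 2 Egfl7 probe sets stayed between 7.05 and 76.2. Correlations among the 4 over the arrays ran from 0.18 to 0.64, and the second probe set is of the x_at type, whose oligonucleotides can also match other transcripts.

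**Figure D2:**
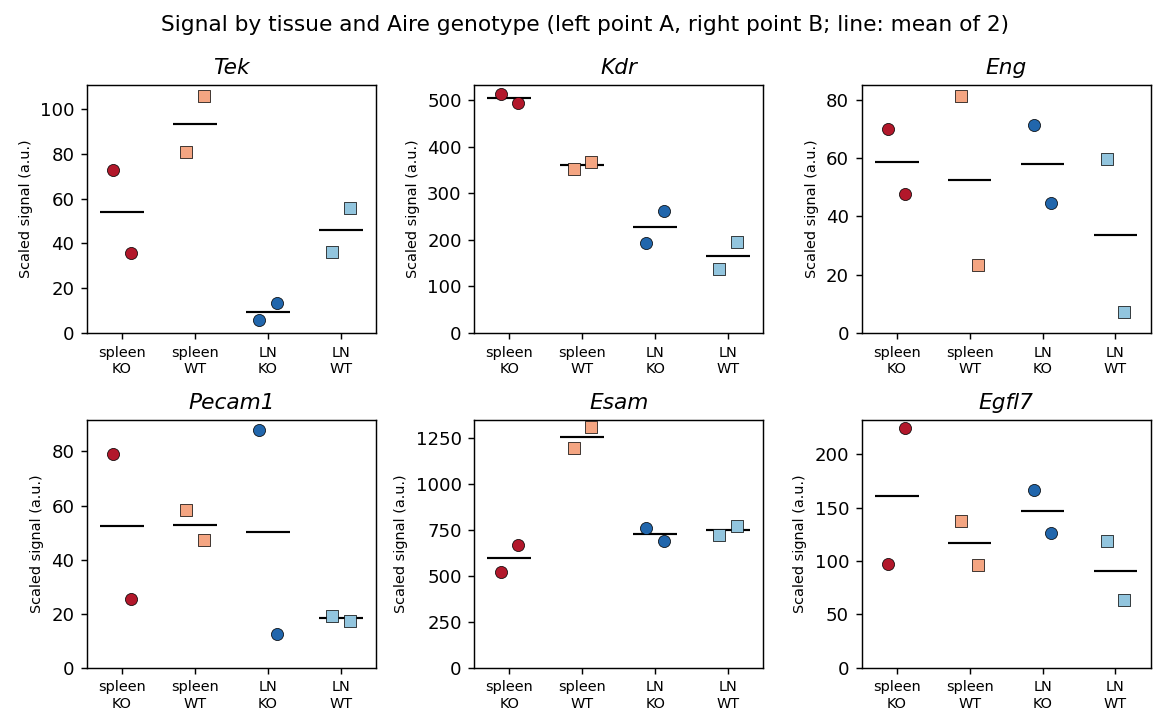
Signal of the 6 tested genes, each with its representing probe set, in arbitrary units on linear axes from 0; in each panel knockout spleen, wild-type spleen, knockout lymph node (LN) and wild-type lymph node run left to right, with array A left and B right and a line at the mean of 2. Kdr is higher on all spleen arrays, Esam stands out in wild-type spleen at 1195 and 1308, and Tek is lowest in knockout lymph node at 5.66 and 13.2.

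Between Aire-knockout and wild-type spleen, none of the 6 tested genes passed limma at a Benjamini-Hochberg adjusted p under 0.05. Over all genes 0% passed, and 967 genes, 8.35%, had an unadjusted p under 0.05. Of the set 1 did, Esam, with means of 594 ± 101 in knockout and 1252 ± 80.0 in wild-type spleen (SD, n = 2 each). Its log2 difference was -1.08 ± 0.30 (SE), 2.12-fold lower, with a 95% interval of -1.80 to -0.37 (unadjusted p = 0.0089, limma adjusted p = 0.430). In bulk samples fewer cells of a type and less RNA per cell cannot be told apart. Tek was also lower without overlap, at -0.86 ± 0.46 (limma adjusted p = 0.675), and Kdr was higher without overlap, at 0.49 ± 0.33 (limma adjusted p = 0.752). Thus 1 of 6 lay above and 2 of 6 below without overlap, where 13.3% and 23.8% of all genes did, so these counts are near the background.

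In knockout against wild-type lymph node 0 of 6 genes and 0% of all genes passed limma after adjustment, and 388 genes, 3.35%, had an unadjusted p under 0.05. Tek was 1 of them. Its means were 9.42 ± 5.32 in knockout and 45.9 ± 13.9 in wild-type lymph node (SD, n = 2 each), and the log2 difference was -2.0 ± 0.46 (unadjusted p = 0.0034, limma adjusted p = 0.876). One knockout value was under the floor and the other close to it, so no fold is given. With the floor at the 40th percentile of all values the difference was -0.36 (unadjusted p = 0.430). Egfl7 was the 1 gene of 6 higher without overlap, at 0.74 ± 0.52 (limma adjusted p = 0.9998), and Tek the 1 lower without overlap, against 14.5% and 16.3% of all genes. Kdr, at 0.47 ± 0.33, had nearly the same difference as in spleen, and Esam, at -0.05 ± 0.30, had an interval of -0.76 to 0.67.

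With both tissues averaged, 0 of 6 genes and 0% of all genes passed limma after adjustment. Unadjusted p-values under 0.05 were seen for 921 genes, 7.96%, and for 2 of the 6. Tek differed by -1.43 ± 0.32 (limma adjusted p = 0.359; -0.61 with the higher floor), and Esam by -0.56 ± 0.21, 1.48-fold lower (limma adjusted p = 0.580). Tek was lower in knockout within both tissues, and 35.7 in knockout spleen B was also under both wild-type lymph node arrays. Kdr was 0.48 ± 0.24 higher (limma adjusted p = 0.672). Over the 6 genes the median difference was 0.40, against -0.06 over all genes tested. Of the 6, 4 were above 0 and 2 below, where 43.27% of all genes were above 0.

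The knockout difference was then compared between the tissues by the interaction term. After adjustment 0 of 6 genes and 0% of all genes passed limma, and 394 genes, 3.40%, had an unadjusted p under 0.05. Esam was the member among them. Its difference in spleen lay 1.04 ± 0.43 below its difference in lymph node on the log2 scale (unadjusted p = 0.0452, limma adjusted p = 0.9996), so its lower signal is not shown to be particular to spleen. For Tek the term was 1.14 ± 0.65 (limma adjusted p = 0.9996), and for Kdr it was 0.02 ± 0.47 with an interval of -1.11 to 1.14.

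Eng, Pecam1 and Egfl7, each by the probe set that represents it, had no unadjusted p under 0.05 in any comparison. With every probe set tested on its own, the second Egfl7 probe set differed by 0.90 in knockout spleen (unadjusted p = 0.0393, limma adjusted p = 0.621) and by 0.74 averaged over the tissues (unadjusted p = 0.0214, limma adjusted p = 0.613). The intervals of the representing probe sets were wide. In lymph node the knockout difference of Eng was 1.24 with an interval of -0.98 to 3.45, and that of Pecam1 was 0.86 with an interval of -1.34 to 3.05. Leaving out a single array turned some directions: without wild-type lymph node B the Eng difference was -0.09, without knockout lymph node A the Pecam1 difference was -0.56, and without knockout spleen B the Egfl7 difference in spleen was -0.25. Over its 18 alternatives the Eng difference in lymph node ran from -0.09 to 2.56, the highest without wild-type lymph node A. Adding Y-linked signal to the model also made the knockout difference of Eng larger. It was then 1.38 in spleen (unadjusted p = 0.0090), 2.05 in lymph node (unadjusted p = 0.0012) and 1.72 averaged, against 0.82 averaged without it (unadjusted p = 0.00077, limma adjusted p = 0.195 with the covariate). With the covariate 1149 of the 11575 genes had an unadjusted p under 0.05 averaged over the tissues by limma. Y-linked Eif2s3y was lower in A than in B in every group, so the covariate in part follows the letter. The other Eng probe set ran the opposite way in spleen, with 5.93 and 7.71 in knockout against 29.0 and 43.95 in wild-type samples.

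The tissues were compared over 4 spleen and 4 lymph node arrays. Limma called 0 of 6 genes and 0% of all genes after adjustment, and 1249 genes, 10.8%, had an unadjusted p under 0.05. Kdr and Tek were among them. Kdr averaged 432 ± 83.8 in spleen and 197 ± 51.7 in lymph node (SD, n = 4 each), a log2 difference of 1.15 ± 0.24 or 2.22-fold (interval 0.59 to 1.71, unadjusted p = 0.0019, limma adjusted p = 0.221). It was the only member of the 6 higher in spleen without overlap, as were 3.84% of all genes, and 0 were lower without overlap, as were 1.94%. Its difference stayed between 1.02 and 1.28 over 20 other settings. Tek averaged 73.6 ± 29.0 in spleen and 27.7 ± 22.8 in lymph node (SD, n = 4 each), a difference of 1.61 ± 0.32 (unadjusted p = 0.0017, limma adjusted p = 0.211), with overlapping arrays. With the floor at the 40th percentile it was 0.79 (limma adjusted p = 0.398). All 6 genes had a difference above 0, as had 55.81% of all genes, and their median was 0.72 against 0.06. This is a description only, since Tek entered through spleen arrays, and Eng and Egfl7 turned to -0.21 and -0.08 with single arrays left out. For Esam it was 0.22 ± 0.21, for Egfl7 0.22, for Eng 0.45 and for Pecam1 0.98.

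**Figure D3:**
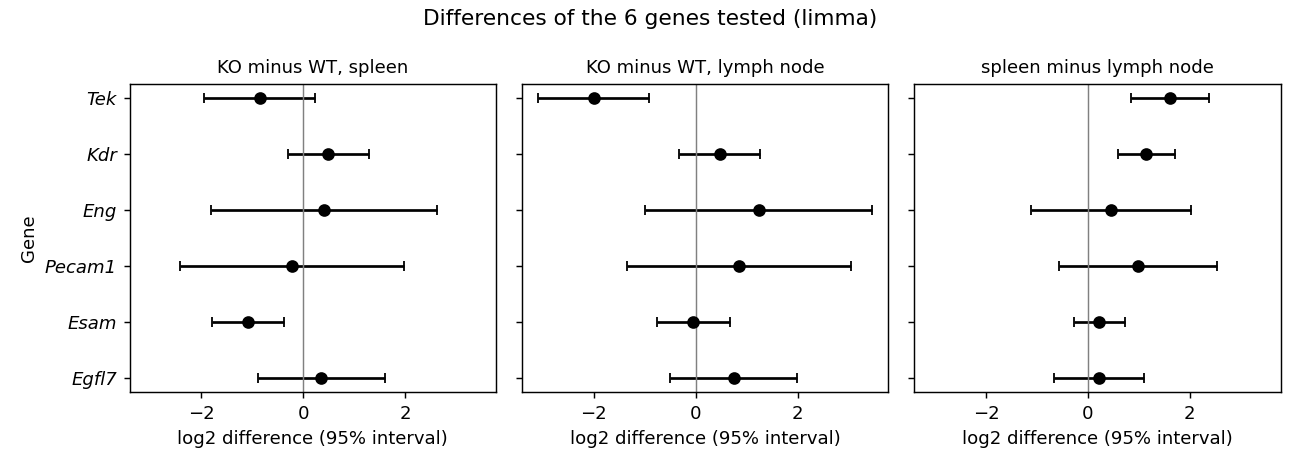
Log2 differences (points) with 95% intervals (bars) of the 6 tested genes from limma, for knockout minus wild-type in spleen, knockout minus wild-type in lymph node, and all spleen arrays minus all lymph node arrays. The intervals of Esam in spleen, of Tek in lymph node, and of Tek and Kdr between the tissues lie off 0, but none of these passed after adjustment over all 11575 genes. Tek entered the tests only through spleen arrays, where it was higher, and its knockout lymph node signals were under or close to the floor.

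The genes did not vary as one. Over the 8 arrays, which share 4 groups, pairwise Pearson correlations of log2 signal among the 6 ran from -0.45 for Tek with Egfl7 to 0.68 for Eng with Egfl7. The 5 other genes whose log2 signal was most like the mean of the 6 were Igkv8-30, Cpne5, Fdps, Fancf and Mvd, with r from 0.95 to 0.97. For Tek alone they were Dhrs7b, Sap30, Slc16a9, Tmem209 and Atp6v1e1, with r of 0.96 or above. None of these 10 genes is in the endothelial lists used here.

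Other endothelial genes were read from lists of known markers. Of 26 surface and junction genes, 8 were past the filter and 8 were at the floor on at least 5 arrays. Claudin-5, encoded by Cldn5 and typical of tight endothelial barriers, lay between 3.61 and 43.5. Vwf, the von Willebrand factor stored by endothelium and platelets, lay between 10.1 and 53.9, and the endothelial surface proteins Clec14a and Robo4 stayed at or under 15.4. By limma 0 of the 8 passed adjustment in any comparison. An unadjusted p under 0.05 was met by 2, both higher, in knockout lymph node and by 0 in knockout spleen, beside 3.35% and 8.35% of all genes. Averaged over the tissues it was met by 2, both higher, beside 7.96%, and in spleen against lymph node by 2, both higher, beside 10.8%. For the interaction it was met by 1, F11r, beside 3.40%. Their median knockout difference was 0.11 in spleen, 0.63 in lymph node and 0.15 averaged, against -0.10, -0.03 and -0.06 over all genes tested. Procr, the protein C receptor, was clear of the filter on all arrays, at 2660 to 3570. Cd36, a fatty acid receptor also found on macrophages and platelets, had 103 and 109 in knockout lymph node against 4.76 and 36.2 in wild-type lymph node (2.51, unadjusted p = 0.0059). Cd93, a surface protein of endothelium and myeloid cells, had 563 and 215.5 against 35.8 and 122.5 there (2.40, unadjusted p = 0.0166). Ecscr, a surface protein of endothelial cells, had 112 and 123 in knockout spleen and 280 and 288 in wild-type spleen, against 6.80 to 89.8 on all lymph node arrays (2.66 higher in spleen, unadjusted p = 0.0057, limma adjusted p = 0.288).

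Ligands and partners of the receptors gave 5 of 13 and 13 of 19 genes past the filter. Vegfa, which encodes the ligand of Kdr, had 472 and 489 in knockout spleen and 778 and 1222 in wild-type spleen, with 420 and 734 in knockout and 814 and 1181 in wild-type lymph node. Knockout arrays were under wild-type arrays in both tissues, with an averaged difference of -0.92 ± 0.30 (unadjusted p = 0.0178, limma adjusted p = 0.508). Angpt1, the main activating ligand of Tek, stayed between 2.59 and 27.0 and was not tested. Flt1, the decoy-like VEGF receptor, stayed at or under 53.4. Of 20 transcription factors used by endothelium, 15 were past the filter. They include genes with wide roles in blood cells, such as Fli1, whereas Sox17 and Sox18, more typical of vessels, stayed at or under 41.9 and were not tested. In these 3 lists limma passed 0 genes after adjustment in any comparison. Averaged over the tissues, an unadjusted p under 0.05 was met by 1 ligand gene, Vegfa, and by 0 genes of the other 2 lists. The share of all genes was 7.96%.

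Markers of other cell types differed in how many were measured. All 9 leukocyte genes matched, all 12 tissue macrophage genes and 9 of 10 dendritic cell genes were past the filter. Ptprc, the pan-leukocyte CD45, lay between 2216 and 3468, and Ccr7, carried by migratory dendritic cells, between 8241 and 14750. Of the lymphatic endothelial genes 4 of 7 were past the filter, of the high endothelial venule genes 5 of 7, of the spleen sinusoid genes 3 of 3, of the platelet genes 4 of 8 and of the fibroblast and pericyte genes 6 of 12. Lyve1 and Prox1, markers of lymphatic vessels, reached 113.5 and 225. Glycam1, which defines high endothelial venules, had 839 and 52.7 in knockout and 63.9 and 82.5 in wild-type lymph node. In spleen it had 63.8 and 104.8 in knockout and 78.7 and 409 in wild-type samples, and the tissues differed by -0.03. Chst4, another venule marker, was at the floor on all 8 arrays. Stab2, a scavenger receptor of sinusoids, had 151 and 124 in knockout spleen and 225 and 71.3 in wild-type spleen, and Pdgfrb, a pericyte receptor, had 215.6 and 23.9 against 58.4 and 42.4. Epcam, an epithelial adhesion molecule, was past the filter on all arrays, with 1147 and 1943 in knockout and 2155 and 2468 in wild-type spleen, and 428 and 935 in knockout and 1416 and 1988 in wild-type lymph node. Of the genes that mark spleen stroma, Tlx1 and Nkx2-5 were not past the filter and each was at the floor on 4 arrays. Limma passed 0 genes of these marker lists after adjustment in any comparison. Averaged over the tissues, an unadjusted p under 0.05 was met by 3 macrophage genes, 2 lymphatic endothelial genes (Itga9 and Lyve1), 1 sinusoid gene (Mrc1) and 1 platelet gene (Pf4) higher in knockout. It was met by 1 high endothelial venule gene (Chst2) and 1 epithelial gene (Epcam) lower, beside the 7.96% of all genes. These genes do not stand for their lists. The averaged difference was above 0 for 3 of 4 lymphatic, 2 of 3 sinusoid and 4 of 4 platelet genes tested. It was above 0 for 3 of 5 venule and 1 of 5 epithelial genes, beside 43.27% of all genes. The lymphatic marker Prox1 was at -1.04 and the sinusoid gene Stab1 at -0.62.

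**Figure D4:**
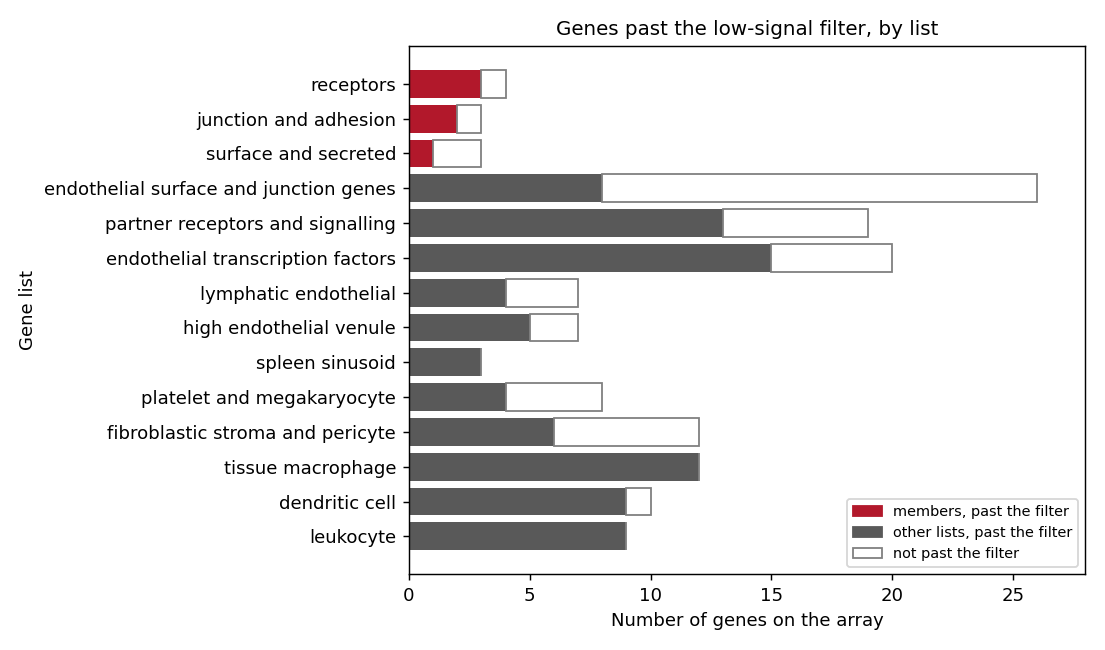
Number of genes of each list on the array (bar length), split into those past the low-signal filter (filled; red for the 3 role groups of the 10 members) and those not (open). The 10 members have 3 of 4, 2 of 3 and 1 of 3 genes past the filter and the 26 other endothelial surface genes 8, whereas 9 of 9 leukocyte and 12 of 12 macrophage genes are past it.

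Macrophage and platelet markers varied between arrays of a group, with the summed signal of A above that of B in every group. Summed over the 12 macrophage genes the signal was 27510 in A and 5158 in B of knockout spleen, and 6587 and 5264 in A and B of wild-type spleen. In lymph node the sums were 20600 and 8845 in knockout A and B, against 10480 and 4243 in wild-type A and B. The sums, which the genes of highest signal lead, overlapped between genotypes in both tissues. Gene by gene, 11 of the 12 had a knockout difference above 0 in each tissue, all but Spic. Of all genes tested, 42.53% were above 0 in spleen and 46.8% in lymph node. The medians of the 12 macrophage genes were 2.30 in spleen and 1.76 in lymph node. Averaged over the tissues, Siglec1 was 3.33 higher (unadjusted p = 0.00013, limma adjusted p = 0.153) and Adgre1 1.65 higher (unadjusted p = 0.00053, limma adjusted p = 0.206). The 8 platelet genes summed to 2633 and 390.5 in knockout spleen A and B, against 176 and 128 in wild-type spleen A and B, and the defining marker Pf4, a platelet chemokine, had 1664 and 197 there against 16.4 and 20.5. In lymph node they summed to 1040 and 806 in knockout A and B, against 823 and 278 in wild-type A and B. Of these 8, Treml1 was at the floor on 6 arrays and Gp5 on 5. The knockout A arrays, where Pecam1 was at 79.2 and 88.0, also had Mrc1, a receptor of macrophages and sinusoids, at 834 in spleen and 1009 in lymph node. Knockout lymph node B had Mrc1 at 795 but Pecam1 at 12.4, and knockout spleen B had Mrc1 at 266 and Pecam1 at 25.5. The part of macrophages and platelets in the signals of Pecam1, Eng, Esam and Cd36 was not tested. The 9 leukocyte genes summed, in A and B order, to 45500 and 38680 in knockout spleen, 42920 and 46040 in wild-type spleen, 43250 and 37250 in knockout lymph node and 39450 and 46180 in wild-type lymph node, so their ranges overlapped between the genotypes in each tissue. Of the 4 erythroid genes tested between spleen and lymph node, 0 passed limma after adjustment. An unadjusted p under 0.05 was met by 3, beside 10.8% of all genes. Slc4a1, the red cell anion exchanger, lay at 41.6 to 2159 in spleen and 9.63 to 61.4 in lymph node. The share of red cells and other blood in the samples, and its part in the higher Kdr and Tek of spleen, was not tested.

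The targeted gene, Aire, was lower on every knockout array than on any wild-type array, with an averaged log2 difference of -1.76 (unadjusted p = 0.0011, limma adjusted p = 0.239). The 8 arrays had medians of 53.8 to 65.3 before scaling, and sex-linked signal was not balanced between the genotypes. Xist was low only on the knockout B arrays, at 14.6 in spleen and 23.1 in lymph node, and Eif2s3y only on the wild-type A arrays. Knockout A and wild-type B arrays had both, with Xist at 3565 or above and Eif2s3y at 521 or above. In each group A and B thus differed in sex make-up.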

How the data were processed

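The deposited table holds linear array intensity, a single value for each probe set, made with MAS5 per the submitters' processing notes. Its version is not stated there, and detection calls were not used here. In the deposited table the 2% trimmed mean was 250.0 on every array. Of 45101 probe sets, 64 controls were left out; 34945 of the rest carried 1 gene symbol, 932 several and 9160 none. Array medians differed by 0.279 on the log2 scale, so each array was scaled to the common median, raised to the floor and taken to log2. Where a gene had several probe sets, that of highest mean represented it. Limma 3.58.1 in R 4.3.3 fitted a mean for each of the 4 groups to all 8 arrays, with empirical Bayes moderation (4 residual and 2.90 prior degrees of freedom). The fit was first tried on simulated data with changes placed only between spleen and lymph node. The knockout comparisons and the interaction were not simulated. Adjusted p-values are Benjamini-Hochberg values over all 11575 genes. The number of arrays limits the precision.

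All members were named, with every probe set. Of the other lists (188 genes with the members and the sex-linked genes, 177 matched), up to 4 genes with the smallest p in a comparison and fixed defining markers were to be named, with the 5 genes most like the mean of the members and like Tek; Cldn5, Vwf, Clec14a, Robo4, Angpt1, Flt1, Sox17, Sox18, Chst4, Treml1 and Gp5, which were not tested, and Procr were chosen after their values were seen. The members and lists were chosen with earlier results of these data known. Promoter windows and the microRNA come from RefSeq tables of GRCm38.p6; no coordinates were taken from the array files. Alternatives covered scaling, floor, filter, probe set choice, prior, a Y-linked covariate, the replicate letter and leaving out each array.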

Additional observations from a re-analysis of the deposited data

How the results depend on the processing

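In all 20 alternatives and all 5 comparisons, 0 of the members tested passed adjustment. Over the alternatives limma called at most 2 genes of all in the knockout comparison in spleen, 3 in lymph node, 5 averaged, 0 for the interaction and 44 between the tissues, the last with a trended robust prior. Of 575 member differences under alternatives, 21 moved by more than 1 SE, and none passed the threshold. The Tek difference in lymph node ran from -2.38 without a floor to -0.36 with the floor at the 40th percentile, its averaged difference from -1.69 to -0.61, and its interaction term turned to -0.50 with that floor; fewer of its arrays then lie above the floor. The Esam difference in spleen ran from -1.26 to -0.91. The Tek difference in spleen was -1.37 without knockout spleen A and -0.35 without B. In the spleen comparison the median difference of all genes was -0.10 with median scaling and 0.02 as deposited. Adding the letter as a replicate block left 0 members called in every comparison. The letters pair no mice in the labels. Deviations of A from B correlated between groups at 0.06 to 0.31, under 0.1 for 3 of the 6 pairs of groups. The highest value was between knockout spleen and knockout lymph node. Spleen and lymph node samples of the same genotype and letter also shared their sex-linked pattern. Xist was low on both knockout B arrays and Eif2s3y on both wild-type A arrays. Whether such samples came from the same mice was not tested, and the tissue comparison treated them as separate. Leaving out 1 array turned the direction in at least 1 comparison for Eng, Pecam1 and Egfl7, though not for Eng and Egfl7 averaged over the tissues. It also turned the Esam difference in lymph node, which ran from -0.11 to 0.02 over the alternatives. The Kdr interaction term, which ran from -0.24 to 0.27, turned as well. With the Y-linked covariate the averaged Eng difference was 1.72. With the floor at the 40th percentile the Tek difference between the tissues was 0.79. Signals under or near the floor limit Tek, Tie1, Cdh5, Emcn and Plvap, and in part Eng and Pecam1. Eng was under it in wild-type lymph node B, at 7.30, and Pecam1 was near it in knockout lymph node B, at 12.4.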
